A study of Mus musculus with 6 samples.

Results

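The 58 genes described here encode the actin cytoskeleton and the focal adhesions of the mouse atrium. They were chosen by name, with earlier results of these data known. They comprise actins and myosins, crosslinkers, adhesion proteins, Arp2/3 subunits, filament regulators, small GTPases with their effectors, and membrane linkers. All 58 were found among the 43432 genes of the deposited table, and all 58 had a mean of at least 10 normalized counts and were tested. A normalized count is the number of reads on a gene divided by a scaling factor of its library. The RNA came from the right and left atria of C57BL/6J wild-type mice, 3 fed a high-fat diet (HFD) and 3 fed a control chow, each for 10 weeks from 6 weeks of age. For all 6 samples the treatment field of the labels names the other diet than the title does. The titles match the names of the deposited columns, so groups were taken from them, and every direction below rests on that choice. The libraries held 15874251 to 28971508 reads on genes, and 19.5% to 30.7% of these reads lay on mitochondrial genes. Both the most reads and the 30.7% belonged to control mouse 2. The defining markers of atrial myocytes were high in every library, with 27168 to 60190 normalized counts of Myl7 and 19693 to 27600 of Sln.

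Actin filaments are built from actin monomers, branch where the Arp2/3 complex binds, and are bundled by crosslinkers such as the α-actinins and filamins. Myosin II pulls on them when its light chain is phosphorylated, a step that myosin light chain kinase carries out. At focal adhesions, talin, vinculin, paxillin and zyxin tie the filaments to integrins and thus to the matrix. In the atrium these genes are used by myocytes, fibroblasts, endothelial cells, smooth muscle and leukocytes alike. In RNA of whole tissue, fewer cells of a type and less RNA per cell cannot be told apart.

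The clearest difference between the diets was in Actn1, which encodes the non-muscle crosslinker α-actinin-1. It had 957, 919 and 947 normalized counts in HFD mice 1, 2 and 3 and 659, 521 and 494 in control mice 1, 2 and 3. Every HFD mouse lay above every control mouse, and the fold was 1.69. Calponin 1 (Cnn1), an actin-binding protein of smooth muscle, moesin (Msn), a linker of actin to the plasma membrane, and the scaffold Iqgap1 were also higher in every HFD mouse, but without an adjusted p under 0.05. Most of the other genes differed little between the diets. A second feature of the data was a single animal, HFD mouse 3, in which Myl9, Actn4, Actg1 and several other members were far above the remaining 5 mice.

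HFD mouse 3 held the highest value of the 6 mice for 29 of the 58 genes, against 20.3% of all genes tested. It was also more than 0.5 above the mean of the other 5 mice, on the log2 scale, for 14 members (24.1%), against 10.5% of all genes. These 14 were Myl9, Cnn1, Actn4, Coro1a, Actg1, Cnn2, Acta2, Rac2, Actb, Was, Zyx, Rhoc, Vcl and Myh9. They were singled out after their values were seen and are given as a description. The excess was largest for Myl9, a regulatory light chain of myosin II, which had 1468, 2219 and 6805 normalized counts in HFD mice 1, 2 and 3 and 2199, 1484 and 2112 in the control mice. HFD mice 1 and 2 thus lay close to the lowest and the highest control mouse, and HFD mouse 3 lay 1.87 above the mean of the other 5 on the log2 scale. Actn4, the second non-muscle α-actinin, followed the same pattern with 2538, 3070 and 6137 in the HFD mice and 3362, 2540 and 3067 in the control mice. The cytoplasmic actins did so too. Actg1 had 5582, 5099 and 10472 normalized counts on the HFD and 6895, 5618 and 6762 on the control diet. Actb had 10689, 9874 and 17460 against 13584, 12248 and 11984. For both actins, HFD mice 1 and 2 were below all 3 control mice and HFD mouse 3 was above them.

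**Figure D1:**
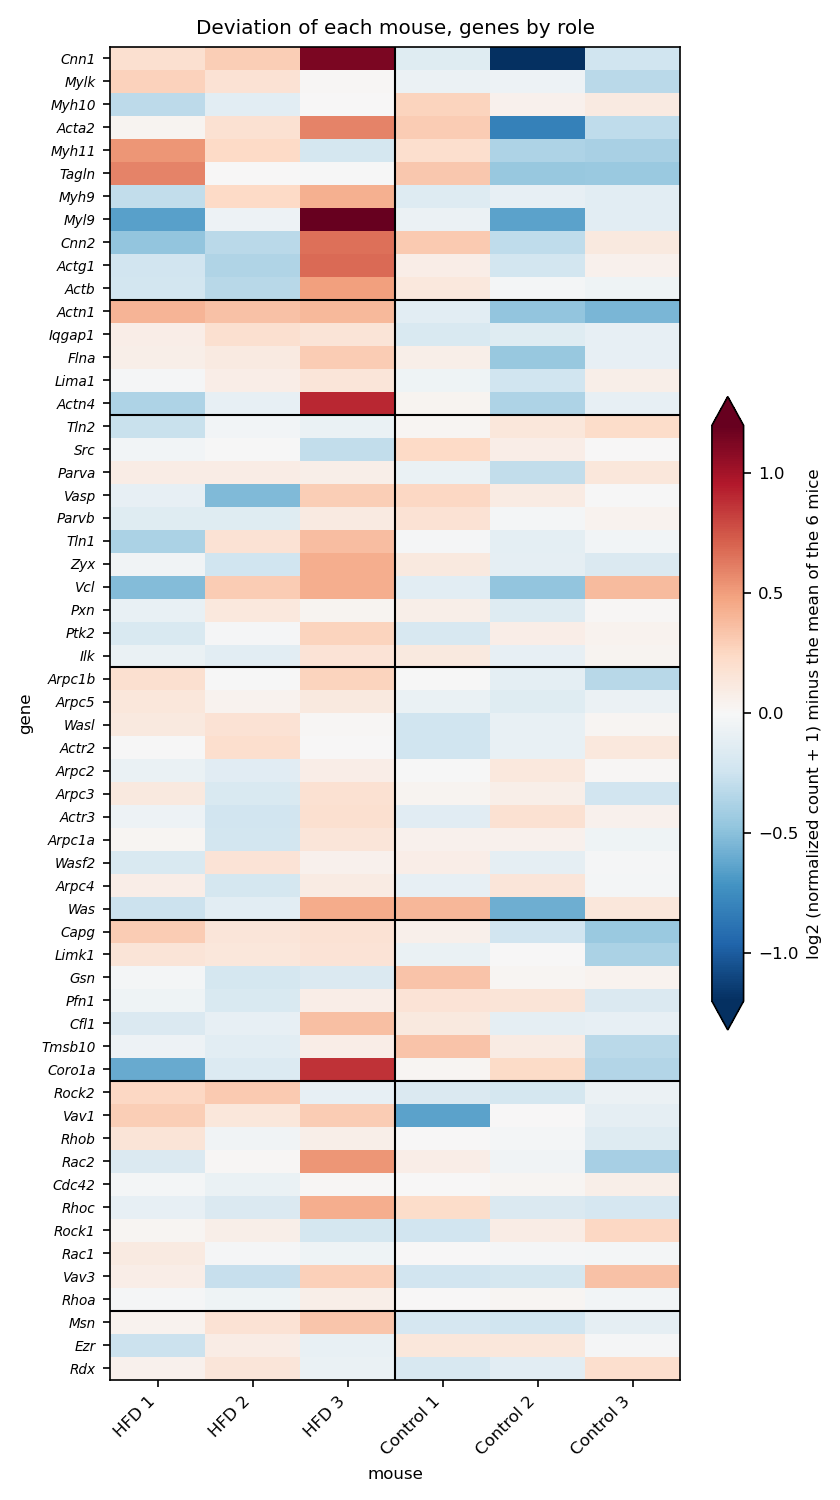
Each row is 1 of the 58 genes, grouped by role, and each column 1 mouse. The colour gives the log2 (normalized count + 1) minus the mean of the 6 mice, red above and blue below, with the scale ended at 1.2 on either side. The column of HFD mouse 3 is red for 48 of the 58 genes, most deeply in Myl9, Cnn1, Actn4 and Coro1a, while the row of Actn1 is red in all 3 HFD mice and blue in all 3 control mice.

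The mean log2 value over the 58 genes was 10.10, 10.13 and 10.37 in HFD mice 1, 2 and 3 and 10.16, 10.00 and 10.07 in the control mice, so that HFD mouse 3 was the highest and the other HFD mice lay within the control range. Over all genes tested the same mean was between 7.86 and 7.89 in every mouse. The excess was not shared by all contractile genes. Myh11, the smooth muscle myosin heavy chain, had 1017, 833 and 611 normalized counts in the HFD mice and 810, 545 and 539 in the control mice, so that HFD mouse 3 was the lowest of its diet. The transgelin gene Tagln, another smooth muscle gene, had 1272, 843 and 837 against 1051, 613 and 618. Tagln shares 1241 of its 1988 exon bases with Gm48529 on the other strand. The 11 markers of smooth muscle and pericytes outside the 58 genes summed to 12317 in HFD mouse 3, to 12908 and 14173 in HFD mice 1 and 2 and to 12254, 13507 and 13680 in the control mice. HFD mouse 3 thus had no excess in the sum of these markers. The part of smooth muscle cells in the values of HFD mouse 3 was not tested.

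HFD mouse 3 also differed from HFD mice 1 and 2 in Myl7 and in the sum of the atrial myocyte markers. In Myl7, however, HFD mouse 3 lay within the control range and HFD mice 1 and 2 lay below it. Myl7, the atrial myosin light chain, had 31186 and 27168 normalized counts in HFD mice 1 and 2, 58765 in HFD mouse 3 and 60190, 56346 and 58183 in the control mice. The 5 atrial myocyte markers summed to 285064 and 285797 in HFD mice 1 and 2, to 518575 in HFD mouse 3 and to 440112 to 480118 in the control mice. The log2 fold change between the diets was below 0 for 4 of these markers and above 0 for 1. Their part in the values of the 58 genes was not tested. Over the 58 genes, measured in the same libraries, the correlation of the excess with the guanine and cytosine content of the transcripts was 0.27, against 0.09 over all genes. With a trend with this content taken out of each library, HFD mouse 3 was highest for 29 of the 58 genes, against 20.7% of all genes. The median excess of HFD mouse 3 over the mean of the other 5 mice went from 0.19 to 0.16 on the log2 scale. The part of this content in the excess was not tested.

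Serum response factor (SRF) is the transcription factor best known for driving actin and smooth muscle genes, and it binds the CArG box, CC followed by 6 A or T and then GG. The window from 250 bases before to 50 bases after each start, as RefSeq gives it on GRCm38.p6, was searched for this motif, whose definition is the same on both strands. The promoter table held 48 of the 58 genes, and 6 of these 48 (12.5%) had a CArG box, against 488 of 27025 genes (1.81%). The 6 were Myl9, Arpc4, Cnn2, Actg1, Vcl and Lima1. Of the 14 genes high in HFD mouse 3, 12 had a promoter in the table and 4 of these had the box. Of the other 44 genes, 36 had a promoter and 2 had the box. The 14 genes had been singled out after their values were seen, and these shares were not tested. A match is a run of letters and does not show binding. Only exact matches within this window were counted, so the lack of a match does not show the lack of an SRF site. Actb, Tagln and Myh11 were among the genes whose promoters were not searched. The 4 promoters are shown because they belong to genes high in HFD mouse 3, each 5′ to 3′ in the direction of its gene, with the CArG box in capitals. The box of Myl9 begins 161 bases before the start, that of Cnn2 56, that of Actg1 90 and that of Vcl 227 bases before it.
Myl9, chr2:156775214-156775513, plus strand: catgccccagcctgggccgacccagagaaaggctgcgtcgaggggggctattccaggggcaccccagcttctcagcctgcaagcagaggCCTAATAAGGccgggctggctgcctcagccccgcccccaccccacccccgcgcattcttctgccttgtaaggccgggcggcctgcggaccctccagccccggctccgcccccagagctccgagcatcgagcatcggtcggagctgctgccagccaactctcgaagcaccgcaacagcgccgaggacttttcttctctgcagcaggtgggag
Cnn2, chr10:79988350-79988649, plus strand: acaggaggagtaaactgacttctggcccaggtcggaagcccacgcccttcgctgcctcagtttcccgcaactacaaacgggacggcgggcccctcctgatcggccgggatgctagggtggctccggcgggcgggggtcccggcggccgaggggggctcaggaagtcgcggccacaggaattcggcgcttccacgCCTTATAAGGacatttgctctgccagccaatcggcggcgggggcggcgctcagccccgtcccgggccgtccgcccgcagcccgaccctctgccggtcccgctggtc
Actg1, chr11:120348446-120348745, minus strand: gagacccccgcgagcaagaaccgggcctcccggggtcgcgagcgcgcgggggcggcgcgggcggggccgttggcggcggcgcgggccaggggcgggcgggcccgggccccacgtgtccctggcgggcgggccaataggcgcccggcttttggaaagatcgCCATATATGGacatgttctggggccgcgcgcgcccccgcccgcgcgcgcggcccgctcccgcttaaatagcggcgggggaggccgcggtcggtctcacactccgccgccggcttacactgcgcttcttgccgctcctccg
Vcl, chr14:20929148-20929447, plus strand: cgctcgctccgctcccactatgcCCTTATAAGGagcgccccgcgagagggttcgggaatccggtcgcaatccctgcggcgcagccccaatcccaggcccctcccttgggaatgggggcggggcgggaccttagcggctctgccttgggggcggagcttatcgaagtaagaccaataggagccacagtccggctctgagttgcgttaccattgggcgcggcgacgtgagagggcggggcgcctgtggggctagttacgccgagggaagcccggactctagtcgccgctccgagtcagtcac

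The genes with a box did not all follow one pattern. Cnn2, a calponin of many cell types, had 923, 1027 and 2023 normalized counts in HFD mice 1, 2 and 3 and 1598, 1035 and 1394 in the control mice. Vcl, which encodes vinculin, had 1340, 2378 and 2611 on the HFD and 1765, 1388 and 2514 on the control diet, so that control mouse 3 was nearly as high as HFD mouse 3. Vcl shares 2090 of its 8191 exon bases with Ap3m1 on the other strand. Arpc4 and Lima1, which also have the box, were not among the 14. Lima1, an actin-binding LIM protein, had 749 in HFD mouse 3 and 572 to 715 in the other 5 mice. The Arp2/3 subunit Arpc4 had 777 in HFD mouse 3 and 628 to 803 in the others. Arpc4 shares 283 of its 2321 exon bases with Ttll3 on the same strand. Srf itself had 1821, 2866 and 4719 normalized counts in HFD mice 1, 2 and 3 and 3165, 2472 and 2794 in the control mice. HFD mouse 3 was the highest and HFD mouse 1 the lowest of the 6. The part of SRF in the values of HFD mouse 3 was not tested. Of SRF and 6 of its cofactors, none had an unadjusted limma p under 0.05, and their median log2 fold change between the diets was 0.06. Without HFD mouse 3 the median was −0.079 and 1 of the 7 was higher at this p, against 7.72% of all genes. Without control mouse 2 the median was −0.0029.

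**Figure D2:**
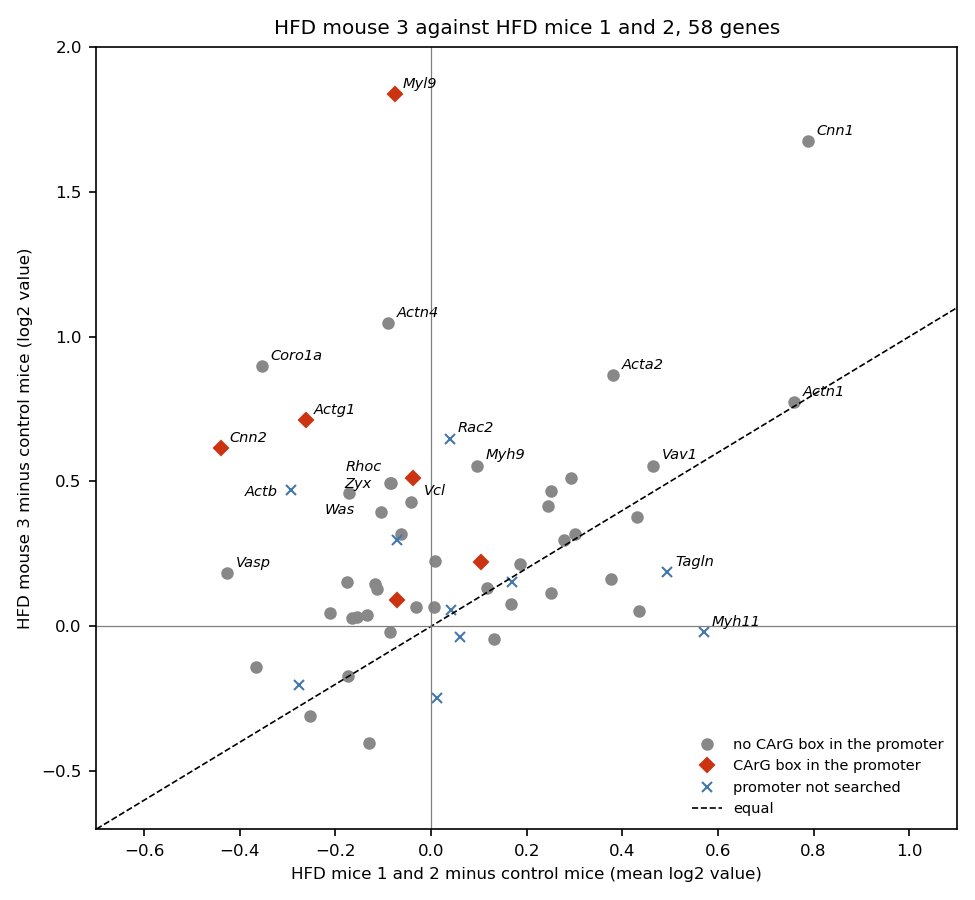
Each point is 1 of the 58 genes. The x axis is the mean log2 value of HFD mice 1 and 2 minus that of the 3 control mice, and the y axis is the log2 value of HFD mouse 3 minus that of the control mice, so that points on the dashed line have the same difference in both. Myl9, Actn4, Coro1a, Actg1 and Cnn2 lie high on the left, where the mean of HFD mice 1 and 2 lies below the control mean and HFD mouse 3 above it, Actn1 lies on the line, and Myh11 lies far to the right at about 0 on the y axis. Red diamonds have a CArG box in the promoter, and crosses mark genes whose promoter was not searched.

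The diets were then compared gene by gene with limma on log2(normalized count + 1) (the added 1 makes fold changes of weakly expressed genes smaller). Only Actn1 had an adjusted p under 0.05 among the 58 genes, against 114 of the 15275 genes tested (0.746%), or 0.484% of all genes when only those higher on the HFD are counted. DESeq2, run on the recovered reads, called Actn1 and Cnn1, against 3.08% of all genes. At an unadjusted p under 0.05, 9 of the 58 (15.5%) were higher on the HFD, against 6.66% of all genes, and 1 was lower, against 5.55%. The values of the diets did not overlap for 15 of the 58 genes, against 18.0% of all genes, 11 with the HFD above, against 8.86% of all genes, and 4 with the HFD below, against 9.17%. The log2 fold change was above 0 for 40 of the 58 genes, against 50.8% of all genes, with a median of 0.08 against 0.005 over all genes. The pooled SD of the mean log2 value of the 58 genes between mice of one diet was 0.119. This SD describes single mice and another measure than the median, so it is not the error of the median.

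The median, the split of directions and the count of lower genes depended on HFD mouse 3. The count of higher genes moved little without this mouse. In the fit without it the median log2 fold change of the 58 genes was −0.035, with 28 genes above 0 and 30 below. In that fit 8 genes were higher at an unadjusted p under 0.05, against 7.72% of all genes, and 5 were lower, against 6.84%. Of these, 7 of the higher and 1 of the lower genes were those of the comparison of all 6 mice. The 5 lower genes were Vasp, Myh10, Cnn2, Actb and Tln2, and the higher ones included Actn1, with a log2 fold change of 0.76 and an adjusted p of 0.0272, Rock2 with 0.43 and Myh11 with 0.57. The number of genes called among all those tested rose from 114 to 342 (2.24%) without this mouse. Other mice mattered as well. The 9 higher members became 3 without control mouse 2 and 5 without control mouse 3 or HFD mouse 2. Over all genes the number called moved as well, from 14 to 342 between the 6 fits that each left out 1 mouse. Shares over all genes at an unadjusted p under 0.05 are given here only for the fit without HFD mouse 3. Myh10, the 1 lower member, passed only in the fit without HFD mouse 3 among these 6 fits. The median was 0.16 without HFD mouse 1, 0.13 without HFD mouse 2 and 0.12 without control mouse 1. Control mouse 2 also stood apart in the 4 ventricular myocyte markers, which summed to 17399 normalized counts in it and to 6882 to 9866 in the other 5 mice. The part of these markers in the member values was not tested.

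**Figure D3:**
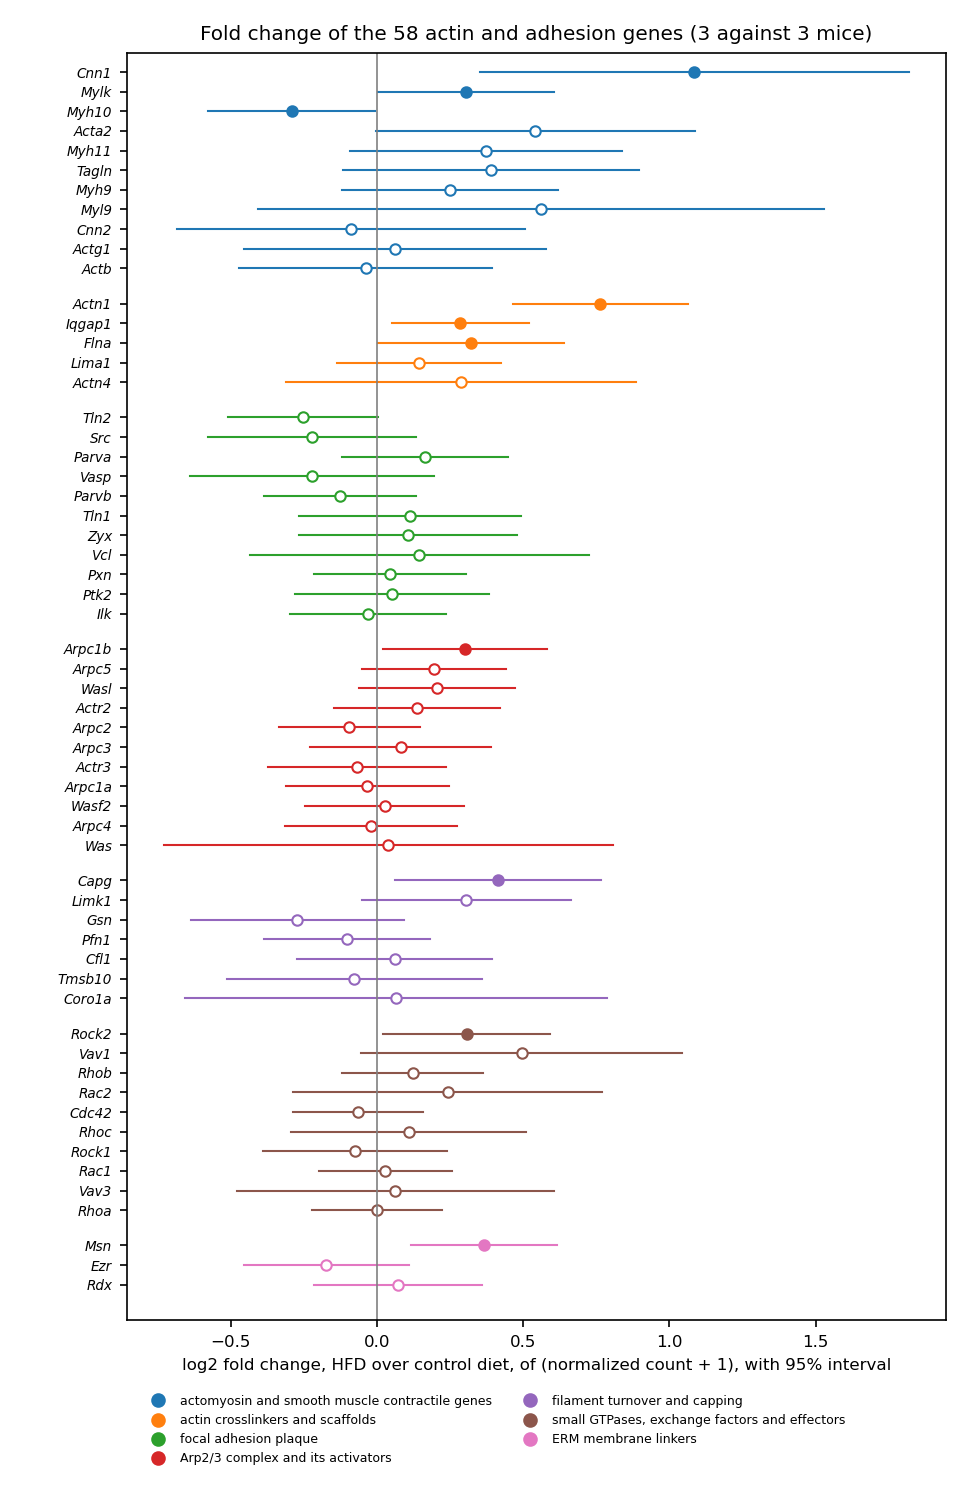
Points give the log2 fold change of each of the 58 genes, HFD over control diet, and bars its 95% interval from limma, with 3 mice per diet. Filled points have an unadjusted p under 0.05, and within each role genes are ordered by this p. Actn1 at 0.76 and Cnn1 at 1.08 lie farthest to the right, and most intervals of the adhesion and Arp2/3 genes include 0.

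The crosslinkers and scaffolds, Actn1, Actn4, Flna, Iqgap1 and Lima1, were all above 0, and 3 of the 5 were at an unadjusted p under 0.05. Over all genes 50.8% were above 0 and 6.66% were higher at this p. The median log2 fold change of the 5 genes was 0.29. Without HFD mouse 3 the counts were 4 above 0 and 2 at this p, against 7.72% of all genes higher at this p. In that fit Actn4 turned from 0.29 to −0.090, Flna no longer passed, and the median was 0.25. Without control mouse 2 the median was 0.18 and 1 gene passed, and without HFD mouse 2 also 1 gene passed. The shares over all genes in those other fits are not given here. Actn1 (chr12:80167542-80260371, minus strand, GRCm38) had a log2 fold change of 0.76 with an SE of 0.13 and an adjusted limma p of 0.0358. Its mean was 941 ± 19.96 (SD, n = 3) on the HFD and 558 ± 88.8 (SD, n = 3) on the control diet. Its adjusted p stayed under 0.05 in 2 of the 6 fits that each left out 1 mouse and was 0.0950, 0.107, 0.163 and 0.140 without HFD mouse 1, HFD mouse 2, control mouse 2 and control mouse 3, and its log2 fold change was between 0.68 and 0.89 in all of them. Iqgap1, a large scaffold that binds actin, Cdc42 and Rac1, had 1194, 1289 and 1258 normalized counts in the HFD mice and 998, 1019 and 1052 in the control mice. The separation was complete but narrow, with a log2 fold change of 0.29, an SE of 0.11 and an adjusted limma p of 0.302. Flna, the filamin that crosslinks actin into networks, had 3150, 3217 and 3696 against 3135, 2185 and 2797, a log2 fold change of 0.32 with an adjusted limma p of 0.401. Its lowest HFD value and highest control value were nearly equal.

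Of the 11 actomyosin genes 8 were above 0, and the median log2 fold change was 0.31. Without HFD mouse 3, 6 of the 11 were above 0 and the median was 0.097, with Myl9 at −0.076, Cnn2 at −0.44 and both cytoplasmic actins below 0. Without HFD mouse 1 the median was 0.20. Cnn1 (chr9:22099281-22109630, plus strand, GRCm38) had 154, 165 and 295 normalized counts in the HFD mice and 121, 56.1 and 114 in the control mice. The diets did not overlap, but HFD mouse 3 was high and control mouse 2 low. Its log2 fold change was 1.08 with an SE of 0.33 and an adjusted limma p of 0.187, and leaving out 1 mouse moved it between 0.73 (without control mouse 2) and 1.28 (without control mouse 1), with 0.79 without HFD mouse 3. Mylk, the kinase that phosphorylates myosin light chains, had 640, 598 and 533 against 504, 507 and 422. Its HFD mice were higher by a log2 fold change of 0.31, with an adjusted limma p of 0.396. Myh10, which encodes the heavy chain of non-muscle myosin IIB, was the one member lower on the HFD at an unadjusted p under 0.05. It had 594, 676 and 741 on the HFD against 891, 766 and 798 on the control diet, a log2 fold change of −0.29 with an adjusted limma p of 0.397. The related heavy chain Myh9, of non-muscle myosin IIA, had 1988, 2871 and 3281 against 2191, 2276 and 2236, and its diets overlapped. Acta2, the smooth muscle α-actin, had 2636, 2913 and 3880 against 3172, 1460 and 2080, with a log2 fold change of 0.54 and an adjusted limma p of 0.413. Without control mouse 2 it was 0.27 and without control mouse 1 it was 0.83. The values of Acta2, Actb and Actg1 are uncertain in so far as reads could not be told apart between these similar actins.

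**Figure D4:**
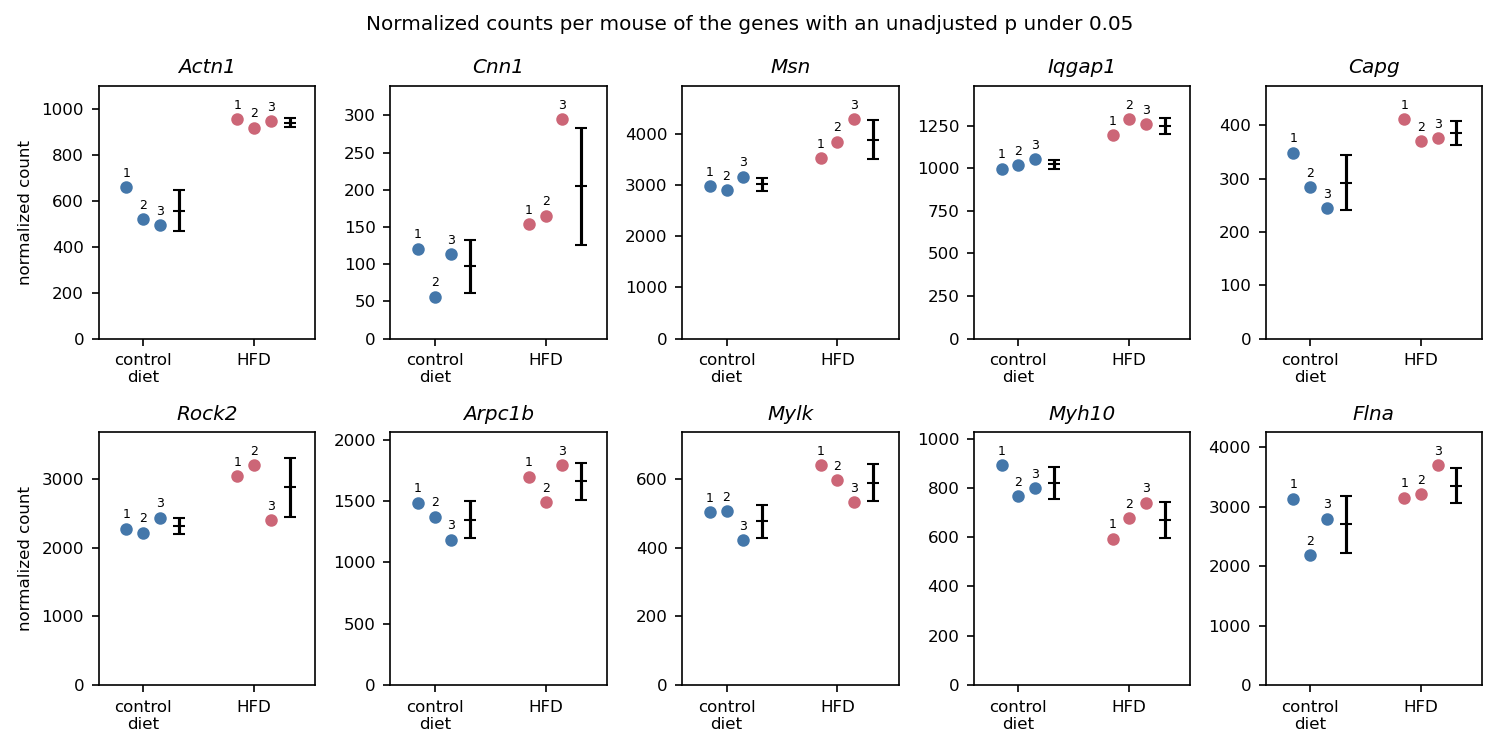
Normalized counts of the 10 genes with an unadjusted limma p under 0.05, on axes from 0, 1 point per mouse with its replicate number, and beside each diet the mean with the SD of its 3 mice. The HFD mice of Actn1 lie between 919 and 957, all above the control mice at 494 to 659. In Cnn1, Msn, Arpc1b and Flna HFD mouse 3 is the highest mouse, and in Rock2 and Mylk it is the lowest of its diet. Myh10 is the one gene with the HFD below.

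Of the 11 genes of the adhesion plaque 6 were above 0, the median log2 fold change was 0.05 and none had an unadjusted limma p under 0.05. The median was −0.087 without HFD mouse 3, with 2 above 0, −0.056 without control mouse 2 and 0.10 without HFD mouse 1. Talin links integrins to actin, and of its genes Tln2 had 1230, 1446 and 1403 normalized counts on the HFD against 1501, 1627 and 1727 on the control diet. All HFD values were lower, with a log2 fold change of −0.25, an interval from −0.51 to 0.003 and an adjusted limma p of 0.418. Tln1, the talin found in most cell types, had 2647, 3878 and 4447 against 3397, 3158 and 3352, with overlap. Src, an adhesion tyrosine kinase, had 204, 208 and 170 against 247, 221 and 210. Its diets nearly touched, and its log2 fold change of −0.22 had an adjusted limma p of 0.638. For the scaffold Pxn (paxillin) the 95% interval of the log2 fold change was −0.21 to 0.31, for the kinase Ptk2 (focal adhesion kinase) it was −0.28 to 0.39 and for Ilk (integrin-linked kinase) −0.30 to 0.24. Ilk shares 2106 of its 2744 exon bases with Taf10 on the other strand, so its value is uncertain. The remaining genes of the plaque, Parva, Parvb, Vasp, Zyx and Vcl, had log2 fold changes between −0.22 and 0.16.

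The Arp2/3 complex and its activators nucleate branched filaments. Of these 11 genes 7 were above 0 and 1 (9.1%) was higher on the HFD at an unadjusted limma p under 0.05. Over all genes 50.8% were above 0 and 6.66% were higher at this p. The median log2 fold change was 0.04, with a range from 0.0064 without HFD mouse 3 to 0.12 without HFD mouse 1. The 1 higher gene was Arpc1b, a subunit prominent in leukocytes. It had 1699, 1489 and 1789 normalized counts on the HFD against 1487, 1373 and 1185 on the control diet. The diets nearly touched, with a log2 fold change of 0.30 and an adjusted limma p of 0.371, and Arpc1b shares 931 of its 5115 exon bases with Pdap1 on the other strand. Its paralogue Arpc1a had a log2 fold change of −0.03 with an interval from −0.31 to 0.25. Arpc5 had 790, 740 and 781 against 681, 650 and 686, a log2 fold change of 0.20 with an adjusted limma p of 0.530. Its diets did not overlap. Actr2, Actr3, Arpc2, Arpc3, Arpc4, Wasl and Wasf2 had log2 fold changes between −0.09 and 0.21.

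Among the 7 genes of filament turnover and capping the median was 0.06 and 4 were above 0. Leaving out 1 mouse moved the median between −0.13 without HFD mouse 3, with 2 above 0, and 0.16 without HFD mouse 1. Capg, a capping protein of macrophages and other motile cells, had 412, 370 and 376 normalized counts in the HFD mice and 348, 284 and 245 in the control mice. Every HFD mouse was higher, with a log2 fold change of 0.41, an SE of 0.16 and an adjusted limma p of 0.328. Limk1, the kinase that inactivates cofilin, had 240, 238 and 242 against 204, 216 and 165. The HFD mice were nearly identical and above all control mice, with a log2 fold change of 0.31 and an adjusted limma p of 0.493. Gsn, the filament-severing protein gelsolin, had 75569, 65981 and 67913 against 97267, 77730 and 78748. It was lower in every HFD mouse, with a log2 fold change of −0.27 and an adjusted limma p of 0.561. After quantile normalization its log2 fold change was −0.088, and without control mouse 1 it was −0.17. Profilin (Pfn1), cofilin (Cfl1) and the monomer-binding Tmsb10 had log2 fold changes of −0.10, 0.06 and −0.08.

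Of the small GTPases, their exchange factors and effectors, Rock2 was the gene with the smallest p. This kinase, which promotes the phosphorylation of myosin light chains, had 3047, 3203 and 2400 normalized counts on the HFD against 2279, 2221 and 2443 on the control diet. HFD mouse 3 lay within the control range, and the log2 fold change was 0.31 with an adjusted limma p of 0.370 in all 6 mice and 0.43 with 0.0757 without HFD mouse 3. The paralogue Rock1 had 1791, 1849 and 1520 against 1504, 1868 and 2092, with overlap. Of the GTPases, Rhoa, Cdc42 and Rac1 had narrow ranges. Rhoa had 2856 to 3094 normalized counts over all 6 mice, with a 95% interval of its log2 fold change from −0.22 to 0.22. Cdc42 had 2978 to 3306 and Rac1 3519 to 3940, with intervals from −0.29 to 0.16 and from −0.20 to 0.26. Rac1 shares 2309 of its 4496 exon bases with Daglb on the other strand. Rhob and Rhoc had log2 fold changes of 0.12 and 0.11. Rhoc ran more widely, from 749 to 1171 normalized counts, with the highest in HFD mouse 3, and the exchange factor Vav3 had 0.06.

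The ERM proteins tie actin to the plasma membrane. Msn had 3529, 3851 and 4293 normalized counts in the HFD mice and 2979, 2896 and 3161 in the control mice. Its diets were clearly apart, with a log2 fold change of 0.37, an SE of 0.11 and an adjusted limma p of 0.193. Ezr (ezrin) had 675, 857 and 761 against 888, 890 and 798, a log2 fold change of −0.17 with an adjusted limma p of 0.641, and Rdx (radixin) had a log2 fold change of 0.07. Moesin was thus the only member of its family whose diets did not overlap; the difference between family members was not tested.

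The list holds 4 genes that are largely restricted to blood cells. All 4 were above 0, none had an unadjusted limma p under 0.05, and their median log2 fold change was 0.15. Vav1, an exchange factor for Rac, had 91.4, 81.6 and 92.0 normalized counts on the HFD against 47.0, 74.6 and 68.9 on the control diet. It was higher in every HFD mouse, with a log2 fold change of 0.49, an SE of 0.25 and an adjusted limma p of 0.465. Rac2 had 99.5, 113 and 162 against 119, 109 and 85.3, with a log2 fold change of 0.24 and an adjusted limma p of 0.740. Coro1a, a coronin of leukocytes, had 135, 184 and 376 against 209, 242 and 161, and Was, the Wiskott-Aldrich syndrome protein, had 38.2, 41.8 and 62.5 against 60.5, 30.1 and 50.3. Both overlapped between the diets and were highest in HFD mouse 3. Leaving that mouse out turned their log2 fold changes from 0.06 and 0.04 to −0.35 and −0.17, lowered that of Rac2 to 0.039 and turned the median of the 4 genes to −0.066.

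Leukocyte and endothelial markers were higher on the HFD beside these values. Of 15 leukocyte markers tested 14 were above 0, 8 were higher at an unadjusted limma p under 0.05 and Itgam had an adjusted p of 0.0106, beside 50.8% above 0 and 6.66% higher at this p over all genes. The count of 8 became 4 without HFD mouse 3, against 7.72% of all genes in that fit. It was 3 without control mouse 3, 5 without HFD mouse 1 and 7 without control mouse 2. Without control mouse 1 or HFD mouse 2 it rose to 10. The shares over all genes in these other fits are not given here. The leukocyte markers summed to 13270 to 15795 normalized counts in the HFD mice and 9482 to 13053 in the control mice. Of 8 endothelial markers 7 were above 0, 2 had an unadjusted limma p under 0.05, and their sum was 21181 to 22930 against 18281 to 18450. Of 8 lymphocyte markers 1 passed the minimum. The sums of fibroblast markers, 45969 to 47712 against 44646 to 51338, overlapped between the diets. The part of these cell types in the values of Msn, Capg, Arpc1b, Vav1 and the other members was not tested. Brown adipocyte markers differed more, with sums of 616 to 1283 against 187 to 330, and those of adipocytes in general overlapped, at 1945 to 6234 against 1094 to 4696.

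Levels can be compared between genes only per length of exon. Per kilobase, Gsn was the highest of the 58 genes with a mean of 24454 normalized counts over the 6 mice, followed by Actb with 4718, Actg1 with 2535, Myl9 with 2336 and Acta2 with 1225. Gsn lay above Actb in every mouse. Actg1 and Myl9 changed places between mice, since Myl9 was the higher of them in HFD mouse 3 alone. Among the crosslinkers Actn4 (563) and Flna (322) were above Actn1 (135). The lowest levels per kilobase were those of Vav3 (16.5), Was (19.8) and Vav1 (20.6).

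**Figure D5:**
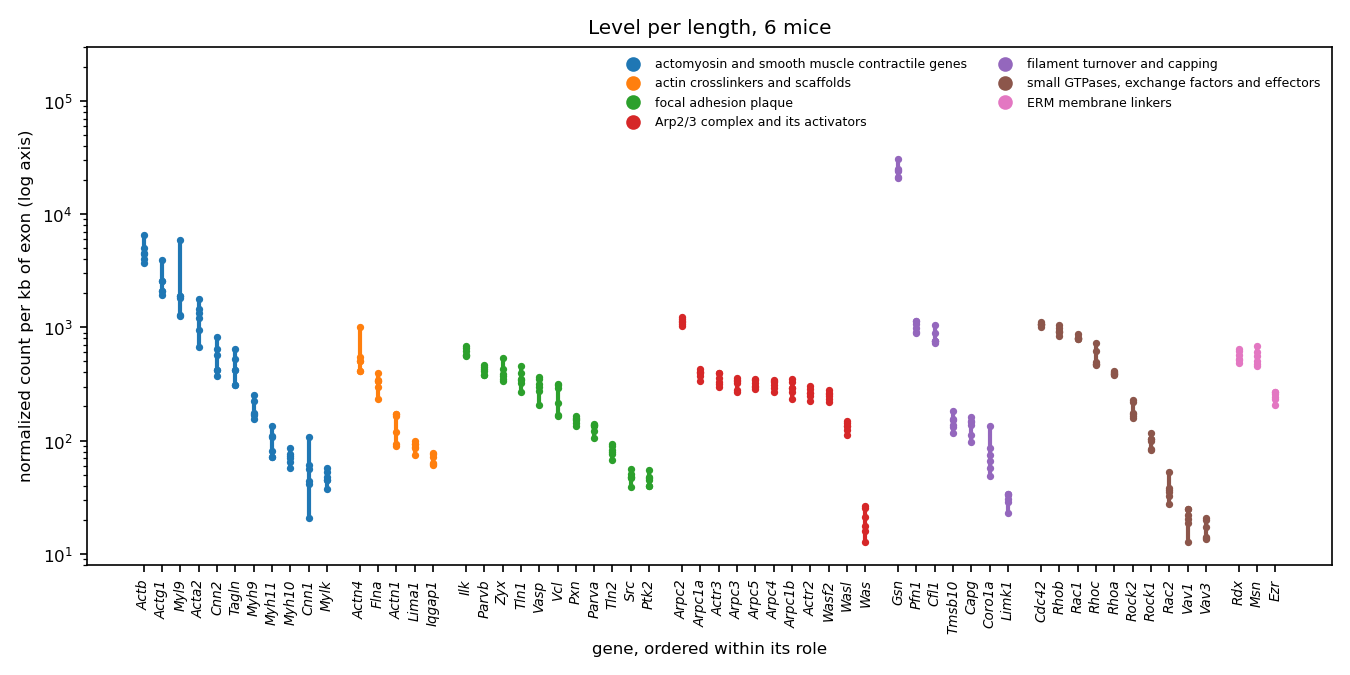
The level of each gene per kilobase of exon on a log axis, 1 point per mouse, with a line from the lowest to the highest of the 6 mice, genes ordered by level within their role. Gsn stands apart from all others at 24454 on average, and Myl9, Cnn1 and Coro1a have the longest lines.

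The wider pathway was described with 116 further genes of the same roles, of which 113 were tested. None had an adjusted p under 0.05 in limma, 13 had an unadjusted p under 0.05 and were higher on the HFD, 3 were lower, and the median log2 fold change was 0.08 with 73 above 0. Over all genes 0.746% were called, 6.66% were higher and 5.55% lower at an unadjusted p under 0.05, and 50.8% were above 0. Among the 113 genes 12 were higher and 8 lower without HFD mouse 3, against 7.72% and 6.84% of all genes, with a median of 0.023. Without HFD mouse 1, 24 were higher, and without control mouse 2, 8 were higher. The shares over all genes in these other fits are not given here. The 15 contractile regulators had 3 higher and 1 lower. Ppp1r12c, a myosin phosphatase subunit, was higher by 0.45 on the log2 scale, and Smtn (smoothelin) had a log2 fold change of −0.43. Of 26 further adhesion genes 5 were higher, among them the kinase Ptk2b with 0.48 and the tensin Tns1 with 0.42. The 14 genes of the Arp2/3, WAVE and WASP complexes had 1 higher, Nckap1l, a WAVE subunit of blood cells, with 0.51. Of 28 turnover and nucleation genes 1 was higher, the formin Fmnl2 with 0.57, and 2 were lower, Evl with −0.47 and Tmod1 with −0.31. Of 12 crosslinkers none reached an unadjusted limma p of 0.05. HFD mouse 3 was also more than 1.5 times above each of the other 5 mice for Flnc, Lims2, Tgfb1i1 and Enah, of which Flnc, the filamin of striated muscle, had 3968, 7960 and 12844 normalized counts in the HFD mice and 5517, 5125 and 6224 in the control mice.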

How the data were processed

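Single-end reads of 50 bases from directional libraries were mapped by the authors to GRCm38 (Ensembl 79) using STAR. Only reads with a unique position were retained, Salmon assigned them to genes, and DESeq2 compared the diets. The deposited signal per gene and mouse is the authors' read count divided by 1 size factor per library, called the normalized count here. Their own columns of fold changes and p-values were not used. Every value was a whole multiple of the value of 1 read (100% within 0.01 reads), so reads could be recovered; 3 reads correspond to 2.05 to 3.41 normalized counts, which covers counting error only. Strand use in the counting is not given in the sources used here.

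Diets were compared with limma 3.58.1 under R 4.3.3 (eBayes, trend = TRUE) on log2(value + 1) over the 15275 of 24679 genes with reads whose mean was at least 10, with Benjamini-Hochberg adjustment at 0.05, 3 mice against 3, all 6 in one fit without covariates. The labels number separate samples but do not describe how mice were drawn, so p-values measure the spread between these samples. An exact permutation test of 3 against 3 cannot go below 0.1. The 58 genes and all lists were chosen with earlier results of these data known. Named genes are those with an adjusted p under 0.05, the 2 smallest p of each role, lower genes at an unadjusted p under 0.05, the 4 blood cell genes and the 3 highest per kilobase, with others named where they complete a role or for HFD mouse 3. Alternatives were quantile normalization, no variance trend, other filters and pseudocount (0.1), mitochondrial genes left out, omission of each mouse, a replicate block, and edgeR 4.0.16 and DESeq2 1.42.0 on recovered reads; a GC trend correction was added after seeing the data. The test was tested on simulated data. A comparison of protein sequences was planned and not run. Gene positions and exon lengths are from GENCODE M21.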

Additional observations from a re-analysis of the deposited data

How the results depend on the processing

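With 3 mice per diet and 1 of them far from the others, single animals set several counts. Leaving out 1 mouse at a time gave 0 to 1 members with an adjusted p under 0.05, 3 to 9 higher and 0 to 5 lower at an unadjusted p under 0.05, a median log2 fold change of the members from −0.035 to 0.16, and 14 to 342 called genes in all. The lowest median and the 342 genes came without HFD mouse 3, and the 14 genes without control mouse 2. Without a variance trend limma called 0 members and 0 genes, with 0 members lower at an unadjusted p under 0.05, and the adjusted p of Actn1 was 0.178. DESeq2 called 2 members, Actn1 and Cnn1 (adjusted p of 0.0351), and 470 genes (3.08%). Quantile normalization left 5 members higher and 2 lower at an unadjusted p under 0.05, and both no filter and the GC trend correction gave 2 lower. The shares over all genes at this p in these settings are not given here. The log2 fold change of Actb turned from −0.04 to 0.0054 with edgeR and TMM, to 0.0071 with edgeR and RLE and with DESeq2, and it was above 0 without HFD mouse 1, HFD mouse 2 or control mouse 1 (range −0.29 to 0.12). Actg1 turned negative without HFD mouse 3 or control mouse 2 (range −0.26 to 0.26), Was without the same mice (−0.24 to 0.25), and Coro1a without HFD mouse 3 or control mouse 3 (−0.35 to 0.38). The causes were not tested. Mice with the same number are different animals, and their deviations from the mean of their diet correlated at 0.12, −0.03 and −0.004 (HFD with control mouse 1, 2 and 3). With 3 mice per diet these correlations cannot show whether mice of one number shared a step of processing. The main fit did not pair them. The replicate block gave 1 called member, 9 higher and 0 lower at an unadjusted p under 0.05 and 157 called genes.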

Other observations

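Genes outside the lists were also far above the other mice in HFD mouse 3; the following 4 were chosen after their values were seen. Ankrd1, a cardiac ankyrin repeat protein of the sarcomere and nucleus, had 5935, 16620 and 95171 normalized counts in HFD mice 1, 2 and 3 and 26687, 17071 and 27665 in the control mice. Nppb, the gene of B-type natriuretic peptide, which myocytes release under stretch, had 662, 1300 and 18872 against 4888, 2237 and 5214. Tnfrsf12a, the receptor of the cytokine TWEAK, had 305, 404 and 2693 against 568, 337 and 457, and Nmrk2, a nicotinamide riboside kinase of muscle, had 99.5, 84.6 and 1274 against 148, 123 and 138. In each of them HFD mice 1 and 2 lay within or below the range of the control mice.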
